A study of Mus musculus with 12 samples.

Results

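The genes described here are 38 components of the PI3K and mTOR pathway, chosen by name: the subunits of phosphoinositide 3-kinase, the enzymes that remove its lipid products, the AKT branch, the TSC complex with Rheb, the mTOR complexes with their substrates, and the lysosomal regulators of mTORC1. All 38 were among the 26202 genes listed, and all 38 passed the filter on low values. RNA-seq measured their transcripts in 4 groups of cultured mouse CD4+ T cells with 3 libraries each. Naive CD4+ T cells were sorted from the spleen of C57BL/6 mice, driven in culture towards TH2 cells (with IL-4) or TH1 cells (with IL-12) and, on day 5, sorted again as live CD4+ cells. By the paper's culture method, both kinds of culture were stimulated with anti-CD3, anti-CD28 and IL-2. Neutralising antibodies were added as well, against IFN-γ in TH2 and against IL-4 in TH1 cultures.

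The TH2 Itgav KO and TH1 Itgav KO groups came from mice with a conditional Itgav allele and the Cd4 CreERT2 transgene. The TH2 control and TH1 control groups carried Cd4 CreERT2 without the conditional allele, so that all 4 groups held the recombinase. CreERT2 is a Cre recombinase that acts only in the presence of tamoxifen, and here it is driven by the Cd4 promoter and so acts in T cells. No source used here states the drug treatment of the sequenced cultures, the age of the mice or a sort on αv, and undeleted cells may be present. Since the labels tie no library to a mouse or culture, the spread behind the p-values may be technical.

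Libraries held 6344186 to 13312234 reads in genes. A gene listed at 0 could lie at up to 0.225 to 0.473 CPM, the level of 3 reads, a floor that covers counting error only. Itgav, the deleted gene, encodes the integrin αv chain and was at 21.0% of the control mean in TH2 Itgav KO cells and at 15.1% in TH1 Itgav KO cells, with no overlap between libraries. The sum of 8 T cell markers was 6935 to 8218 CPM over all libraries. The sum of 8 NK and CD8 T cell markers was 38.3 to 56.9 CPM in TH2 Itgav KO, 26.5 to 51.1 in TH2 control, 118 to 141 in TH1 Itgav KO and 106 to 149.7 in TH1 control libraries, mostly from Gzma in TH2 and from Klrk1 and Klrd1 in TH1 cells, with Ncr1 and Klrb1c listed at 0 throughout. The summed CPM of 5 TH2 markers was 1193 to 1725 in TH2 Itgav KO, 2026 to 3148 in TH2 control, 22.1 to 32.4 in TH1 Itgav KO and 13.9 to 23.3 in TH1 control libraries. That of 5 TH1 markers was 507 to 556, 272 to 408, 6908 to 7133 and 11455 to 13697 in the same groups, so that each sum was highest in the subset it marks. Of the TH2 markers, Il13 averaged 221 CPM in TH2 Itgav KO and 972 CPM in TH2 control cells, and Il5 106 and 538 CPM. In the same groups Gata3 averaged 711 and 787 CPM and Il1rl1 3.28 and 4.62 CPM, while Il4 had the higher mean in the KO (418 and 334 CPM). Levels are given in CPM, the share of the reads in genes scaled to a fixed total. Changes are differences of log2(CPM + 1), which come out too small for low genes, and are given ± the standard error. "Called" means a limma p below 0.05 after Benjamini-Hochberg adjustment over the 9121 genes tested.

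PI3K is recruited to the membrane by T cell receptors, costimulatory receptors, cytokine receptors and integrins, and makes the lipid PIP3, to which the kinases PDK1 and AKT bind. AKT inhibits the TSC complex, which otherwise switches off the small GTPase Rheb, and Rheb bound to GTP activates mTORC1 on the surface of the lysosome. There the Ragulator complex and the Rag GTPases hold mTORC1 when amino acids are plentiful, while GATOR1 switches the Rags off. In T cells the pathway links antigen and cytokine signals to growth, and mTORC2, which contains Rictor, is known to be needed for TH2 differentiation. The data report RNA levels of these components, and not the phosphorylation by which the pathway signals.

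The components lay at very different levels. Per kilobase of exon, the scale on which genes can be compared, the highest in TH2 cells were Lamtor2, a Ragulator subunit, at 121 ± 14.6 CPM per kb in TH2 Itgav KO and 146 ± 33.6 CPM per kb in TH2 control cells, and Rraga, a Rag GTPase, at 97.1 ± 17.6 and 109 ± 31.3 CPM per kb (SD, n = 3). In TH1 Itgav KO cells Pik3cd had the highest mean. Pik3cd, which encodes p110δ, the catalytic subunit that predominates in lymphocytes, stood far above the other class I catalytic subunits. Its level was 71.6 ± 3.31 CPM per kb in TH2 Itgav KO, 40.2 ± 9.84 in TH2 control, 118 ± 7.26 in TH1 Itgav KO and 96.3 ± 14.5 in TH1 control cells (SD, n = 3). Pik3ca, which encodes the ubiquitous p110α, had group means of 10.3 to 13.3 CPM per kb, and Pik3cb, which encodes p110β, 1.96 to 3.30 CPM per kb. Pik3cg, the γ subunit that is activated by G protein-coupled receptors and is not among the 38, had group means of 2.68 to 7.51 CPM per kb. Of the AKT kinases among the 38, Akt1 had group means of 27.1 to 37.0 CPM per kb and Akt2 2.61 to 3.91 CPM per kb. Mtor itself had group means of 8.43 to 11.0 CPM per kb, above Rptor, the defining subunit of mTORC1 (4.26 to 6.04), and near Rictor, the defining subunit of mTORC2 (6.37 to 8.52). The lowest component in TH2 cells was Phlpp1, a phosphatase that acts on AKT, at 0.559 ± 0.147 CPM per kb in TH2 Itgav KO, 0.695 ± 0.461 in TH2 control, 2.30 ± 1.30 in TH1 Itgav KO and 2.69 ± 1.37 in TH1 control cells (SD, n = 3). In TH1 cells Tsc1 was lowest, with means of 1.66 CPM per kb in Itgav KO and 1.89 in control cells. Of the 38 components, 27 had at least 10 CPM in all 12 libraries, and 2 (Phlpp1 and Lamtor3) were under 10 CPM in 5 libraries or more. Both of these reached 10 CPM in TH1 libraries alone.

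**Figure D1:**
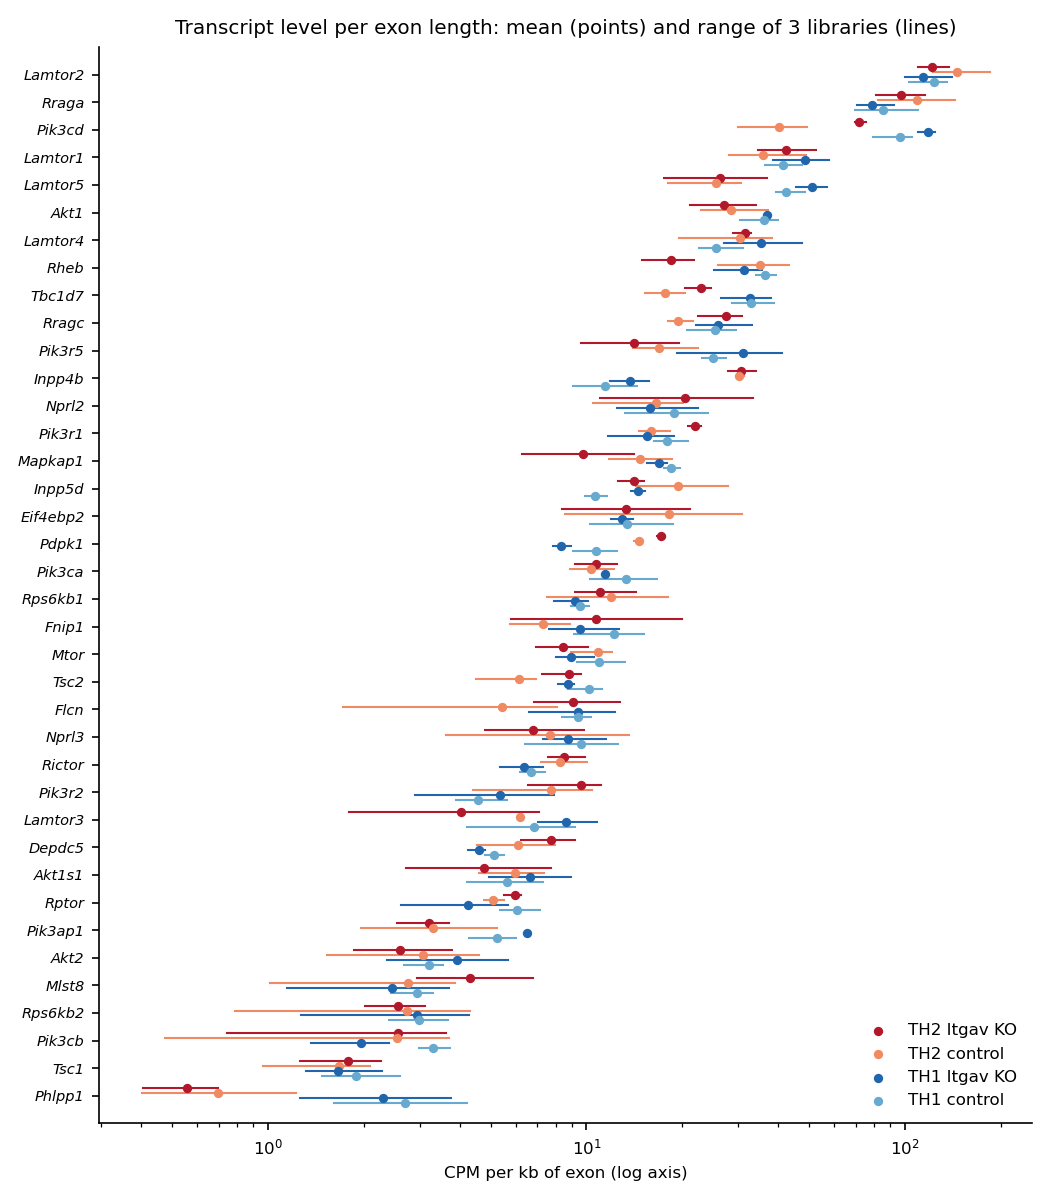
The plot shows the level of each of the 38 components in CPM per kb of exon on a log axis, with the mean of 3 libraries as a point and their range as a line, for TH2 Itgav KO, TH2 control, TH1 Itgav KO and TH1 control cells. Phlpp1 and Tsc1 lie at the low end, with group means of 0.559 to 2.69 and of 1.66 to 1.89 CPM per kb, Lamtor2 lies at 114 to 146 CPM per kb, and Pik3cd lies in a different place for each group.

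The first question was whether loss of Itgav changed the RNA of these components in TH2 cells. Pik3cd rose, to 371, 370.4 and 401 CPM in TH2 Itgav KO libraries against 220.1, 159 and 263 CPM in TH2 control libraries. The groups did not overlap: the KO mean was 178% of that of control libraries, a rise of 0.86 ± 0.16 on the log2 scale (adjusted p = 0.00410). The other 37 were not called, so that 1 of 38 was called where 3.59% of all genes tested were (1.92% higher and 1.67% lower). Among the 38 the median change was 0.06, against 0.04 over all genes, with 23 above 0 and 15 below. At an unadjusted p below 0.05 stood 7 of 38, where 19.1% of all genes did. In bulk RNA, fewer cells of a type and less RNA per cell cannot be told apart.

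Pik3cd is on the minus strand of mouse chromosome 4, at 149649168 to 149702566 of GRCm38, 1.09 Mb from Mtor. The RefSeq starts on GRCm38.p6 used here number 3. All of them lie inside these coordinates, so the bases before the outermost end of the gene were not searched. The 250 bases before each are shown because this is the gene whose RNA differed in the TH2 comparison, and the counts, which cover the whole gene, do not say which start was used. Each run is read 5′ to 3′ on the gene's strand.
Pik3cd chr4:149698709-149698958: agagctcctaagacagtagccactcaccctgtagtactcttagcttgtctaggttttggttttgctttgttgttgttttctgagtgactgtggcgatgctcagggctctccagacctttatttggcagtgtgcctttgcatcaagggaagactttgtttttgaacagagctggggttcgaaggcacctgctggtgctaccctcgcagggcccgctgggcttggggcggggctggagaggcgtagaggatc
Pik3cd chr4:149676090-149676339: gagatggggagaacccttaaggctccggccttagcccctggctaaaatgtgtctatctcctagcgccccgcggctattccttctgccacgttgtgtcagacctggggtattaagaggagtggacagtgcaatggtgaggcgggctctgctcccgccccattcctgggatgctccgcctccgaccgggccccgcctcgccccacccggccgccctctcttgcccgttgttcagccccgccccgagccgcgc
Pik3cd chr4:149663317-149663566: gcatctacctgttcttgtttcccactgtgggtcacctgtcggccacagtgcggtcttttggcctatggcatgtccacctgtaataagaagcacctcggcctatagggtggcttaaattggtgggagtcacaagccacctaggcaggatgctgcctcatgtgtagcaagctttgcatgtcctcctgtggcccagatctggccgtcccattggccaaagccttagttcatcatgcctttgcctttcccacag
These windows were searched on both strands for GATAA (the core bound by GATA factors), TGTGGT (RUNX factors), GTAAACA (FOXO factors) and TCACGTG (the E-box bound by TFEB and related factors). They held none of the 4, which says only that these letters are not in these windows.

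The call of Pik3cd held whichever of the 12 libraries was left out, with 0.0220 as the highest adjusted p, reached without TH2 control 2. It was lost with no filter on low values (adjusted p = 0.127) and without the trend of the variance on the mean (0.0797). The sums of the TH1, TH2, B cell and myeloid markers did not overlap between the same groups. Those of the T cell markers and of the NK and CD8 T cell markers did overlap. The summed TH1 markers were higher in TH2 Itgav KO (507 to 556 CPM) than in TH2 control libraries (272 to 408 CPM), and Pik3cd was itself higher in TH1 than in TH2 cells. That sum was mostly Il12rb2 (means of 512 CPM in TH2 Itgav KO and 312 CPM in TH2 control cells), while Ifng (2.54 and 9.23 CPM) and Cxcr3 (0.290 and 2.63 CPM) had lower means in the KO and Tbx21 averaged 3.93 and 3.14 CPM. The sum of 8 B cell markers, of which 2 passed the filter, was 210.1 to 264 CPM in TH2 Itgav KO against 81.8 to 108 CPM in TH2 control libraries, mostly through H2-Ab1 and Cd74. Of its defining markers, Cd79b averaged 10.6 CPM in TH2 Itgav KO and 5.30 CPM in TH2 control libraries, which did not overlap, while Ms4a1 averaged 0 and 0.0354 CPM. The sum of 8 myeloid markers was 329 to 348 CPM in TH2 Itgav KO against 419 to 554 CPM in TH2 control libraries, mostly from Cst3 and in part from Cd68, with Lyz2 and Tyrobp listed at 0 in every library. The part of these lists in the Pik3cd result was not tested.

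In TH1 cells, Pik3cd had 662, 640.2 and 587 CPM in Itgav KO libraries against 559.6, 554 and 423 CPM in control libraries. Here too the groups did not overlap, but the change was not called (log2 0.31 ± 0.16, adjusted p = 0.543), and the 95% interval ran from −0.03 to 0.64. The KO change was larger in TH2 than in TH1 cells by 0.55 ± 0.23 on the log2 scale, a difference that was not called either (adjusted p = 0.369), so the effect is not shown to be particular to TH2 cells.

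**Figure D2:**
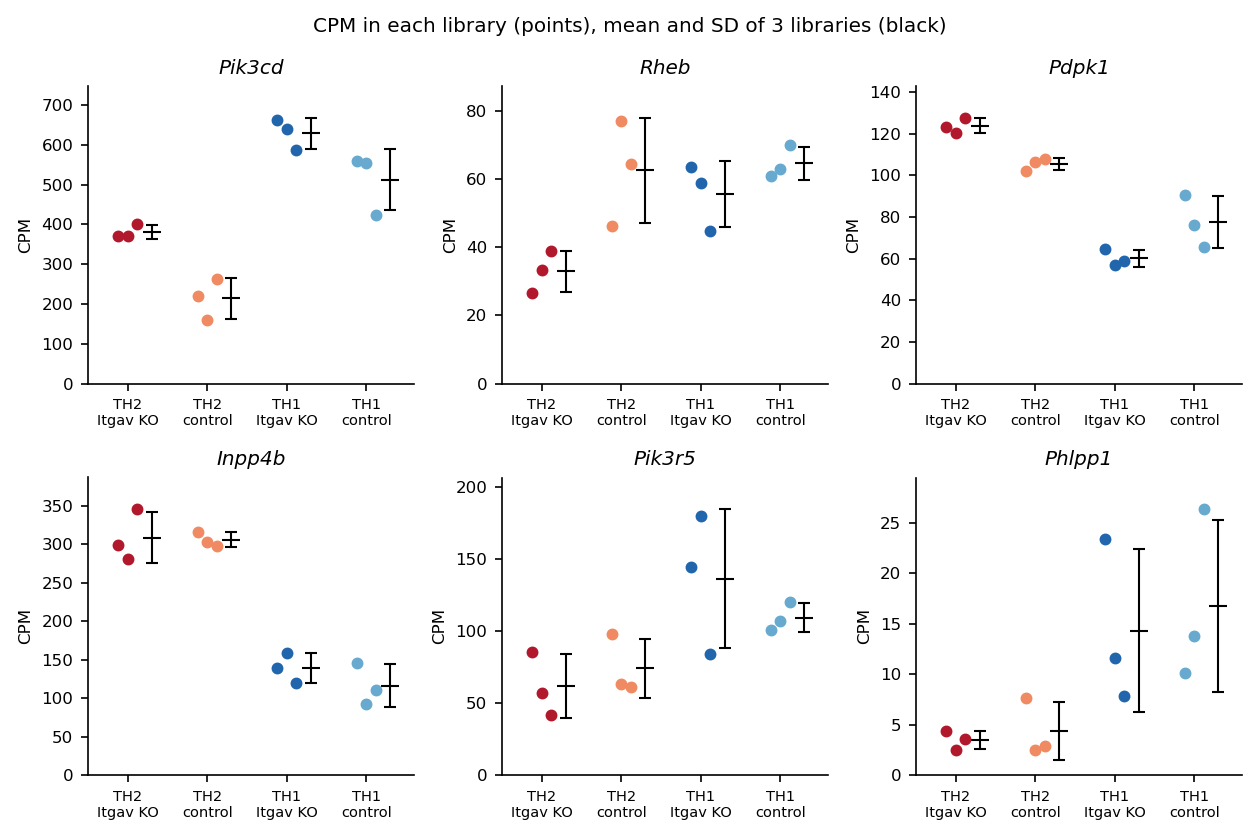
The panels show CPM in each library (points) with the mean and SD of 3 libraries (black) for Pik3cd, Rheb, Pdpk1, Inpp4b, Pik3r5 and Phlpp1 in TH2 Itgav KO, TH2 control, TH1 Itgav KO and TH1 control cells. Pik3cd is higher in all TH2 Itgav KO libraries (370.4 to 401 CPM) than in any TH2 control library (159 to 263 CPM), and Inpp4b separates the subsets whatever the genotype.

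The other catalytic subunits were not called. Pik3ca averaged 96.9 ± 15.1 CPM in TH2 Itgav KO and 93.7 ± 15.6 CPM in TH2 control cells (SD, n = 3; log2 0.05, 95% interval −0.37 to 0.47). Pik3cb averaged 16.5 ± 10.2 CPM in TH2 Itgav KO and 16.5 ± 11.7 CPM in TH2 control cells, and its interval was wide, from −1.12 to 1.39. TH2 Itgav KO 3 (4.82 CPM) and TH2 control 1 (3.08 CPM) lay far below the other libraries for that gene, which held 21.3 to 24.1 CPM in TH2 cells. Of the regulatory subunits, Pik3r1, which encodes p85α and its shorter forms, had 165, 174 and 158 CPM in TH2 Itgav KO against 115, 110.3 and 138 CPM in TH2 control libraries. Those groups did not overlap, but the change of 0.45 ± 0.18 missed the threshold (adjusted p = 0.181). In TH1 cells its change was −0.22 ± 0.18, and the difference between the subsets, 0.68 ± 0.26, had the lowest adjusted p of the 38 for that test (0.322). Pik3r2, which encodes p85β, Pik3r5, which encodes the p101 partner of the γ subunit, and Pik3ap1, the adaptor BCAP, had differences of 0.34, −0.29 and 0.06 in TH2 cells with adjusted p of 0.620 or more.

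The phosphatases that act on PI3K lipids were not called in the KO comparisons. Inpp5d, which encodes SHIP1, had 75.3, 73.6 and 62.5 CPM in TH2 Itgav KO against 139, 80.3 and 71.1 CPM in TH2 control libraries. In TH1 cells it had 75.8, 68.7 and 73.1 CPM in Itgav KO against 49.5, 57.6 and 52.3 CPM in control libraries. The TH1 groups did not overlap, and the changes had opposite signs (−0.39 ± 0.23 in TH2 and 0.44 ± 0.23 in TH1 cells), with a difference of −0.84 ± 0.33 that was not called (adjusted p = 0.326). Inpp4b, which removes a phosphate from the lipid that PIP3 is turned into, lay at 299, 281 and 345 CPM in TH2 Itgav KO against 316, 303 and 298 CPM in TH2 control libraries, a difference of 0.01 with a 95% interval of −0.35 to 0.36. In the AKT branch, Pdpk1, which encodes PDK1, had the smallest spread between replicates of all 38. It had 123, 120.4 and 128 CPM in TH2 Itgav KO against 102, 106 and 108 CPM in TH2 control libraries, without overlap, for a change of 0.23 ± 0.18 (adjusted p = 0.533). In TH1 cells the order was turned, with 64.6, 56.8 and 59.0 CPM in Itgav KO against 90.5, 76.4 and 65.5 CPM in control libraries (−0.35 ± 0.18, adjusted p = 0.539), again without overlap. Akt1, Akt2 and Phlpp1 had differences of −0.07, −0.16 and −0.14 in TH2 cells and of 0.04, 0.20 and −0.24 in TH1 cells, none of them called.

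Next to Pik3cd, the component nearest the threshold was Rheb, the activator of mTORC1. It had 26.7, 33.4 and 38.8 CPM in TH2 Itgav KO against 46.3, 77.0 and 64.5 CPM in TH2 control libraries. Every KO library lay below every control library, the KO mean was 52.7% of the control mean, and the adjusted p was 0.0502 (log2 −0.89 ± 0.25), so the gene was not called. It was called with TMM scaling (0.0363) and without TH2 control 1 (0.0204), and it was furthest from a call with only the TH2 libraries in the fit (0.181). In TH1 cells Rheb had 63.5, 58.8 and 44.8 CPM in Itgav KO against 60.9, 63.0 and 70.0 CPM in control libraries, a change of −0.22 ± 0.25 in groups that overlapped. The difference between the subsets was −0.67 ± 0.35 (adjusted p = 0.501). Rheb is on the minus strand of chromosome 5, at 24802823 to 24842361 of GRCm38, and Rragc, which encodes a Rag GTPase, is on the plus strand of chromosome 4. The 250 bases before their RefSeq starts each held TCACGTG or its reverse complement, printed in capitals.
Rheb chr5:24842362-24842611: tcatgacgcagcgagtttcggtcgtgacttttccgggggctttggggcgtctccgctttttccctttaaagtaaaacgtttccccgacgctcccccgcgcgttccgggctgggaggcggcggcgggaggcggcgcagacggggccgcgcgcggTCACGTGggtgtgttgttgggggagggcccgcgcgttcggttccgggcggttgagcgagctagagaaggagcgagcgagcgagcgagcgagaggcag
Rragc chr4:123917183-123917432: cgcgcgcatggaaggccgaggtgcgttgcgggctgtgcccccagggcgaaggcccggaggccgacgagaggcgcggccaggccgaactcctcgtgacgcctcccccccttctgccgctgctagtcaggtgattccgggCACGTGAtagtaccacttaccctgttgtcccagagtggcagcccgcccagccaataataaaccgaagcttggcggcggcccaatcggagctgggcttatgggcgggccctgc
This motif was in the windows of 5 of 45 starts of the components (11.1%, those of Rheb, Rragc, Lamtor1, Lamtor4 and Fnip1) and of 3.13% of the 32851 starts in RefSeq, a description with no test. The changes of these 5 in TH2 Itgav KO cells ran in both directions, at −0.89, 0.49, 0.26, 0.10 and 0.32. GATAA was in 15.6% of the components' windows against 22.6% of all, TGTGGT in 6.67% against 14.0% and GTAAACA in 6.67% against 3.17%. The windows with GTAAACA were of Mapkap1 and Akt1 only, and those of Mapkap1 overlap and hold the same site.

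The brake on Rheb, the TSC complex, gave changes above 0 in TH2 cells that were not called. Tsc2, the subunit that makes Rheb hydrolyse GTP, had 60.1, 46.0 and 61.0 CPM in TH2 Itgav KO against 28.5, 43.9 and 43.9 CPM in TH2 control libraries (0.53 ± 0.24, adjusted p = 0.230). Its partners Tsc1 and Tbc1d7 had differences of 0.12 and 0.36, with adjusted p of 0.910 and 0.512.

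The 6 genes of the mTOR complexes were not called in either KO comparison. Mtor, the kinase shared by both complexes, had 88.8, 61.2 and 72.2 CPM in TH2 Itgav KO against 102, 78.7 and 105 CPM in TH2 control libraries. In TH1 cells it had 70.5, 93.1 and 71.6 CPM in Itgav KO against 82.2, 116 and 91.0 CPM in control libraries. The groups overlapped in both subsets, and the changes were −0.37 ± 0.21 (adjusted p = 0.368) in TH2 and −0.29 ± 0.21 (0.731) in TH1 cells. Rptor had 40.6, 36.3 and 41.2 CPM in TH2 Itgav KO against 31.4, 36.3 and 33.1 CPM in TH2 control libraries. In TH1 cells it had 37.3, 17.3 and 29.7 CPM in Itgav KO against 35.2, 47.1 and 37.2 CPM in control libraries. Its changes were 0.22 ± 0.29 (adjusted p = 0.735) in TH2 and −0.54 ± 0.29 (0.569) in TH1 cells, with 1 of the TH1 Itgav KO libraries, at 17.3 CPM, far below the other two. Rictor had 92.2, 75.0 and 70.7 CPM in TH2 Itgav KO against 67.2, 93.6 and 69.3 CPM in TH2 control libraries. In TH1 cells it had 49.8, 68.3 and 59.9 CPM in Itgav KO against 69.2, 60.5 and 57.7 CPM in control libraries. Its 95% interval ran from −0.39 to 0.50 in TH2 and from −0.53 to 0.36 in TH1 cells, so that a change of 1 on the log2 scale lay outside both.

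Mlst8, a subunit of both complexes, was low and variable, at 11.5, 12.3 and 26.4 CPM in TH2 Itgav KO against 15.1, 13.2 and 3.94 CPM in TH2 control libraries. The 95% interval of its change ran from −0.40 to 1.75. Mapkap1, which encodes the mTORC2 subunit SIN1, had 46.9, 29.3 and 20.9 CPM in TH2 Itgav KO against 45.9, 39.2 and 61.9 CPM in TH2 control libraries. The change of −0.63 ± 0.27 was not called (adjusted p = 0.213), and the groups overlapped. Akt1s1, which encodes PRAS40, an inhibitor of mTORC1, had a difference of −0.40 ± 0.43. The mTORC1 substrates were likewise not called. Rps6kb1, which encodes the S6 kinase, had a difference of −0.05 (95% interval −0.58 to 0.49), Rps6kb2 one of 0.15 (−0.95 to 1.25) and Eif4ebp2, a repressor of cap-dependent translation, one of −0.37 (−1.12 to 0.38). Single libraries were far apart here: Eif4ebp2 had 122, 60.8 and 48.3 CPM in TH2 Itgav KO against 178, 49.4 and 89.1 CPM in TH2 control libraries.

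**Figure D3:**
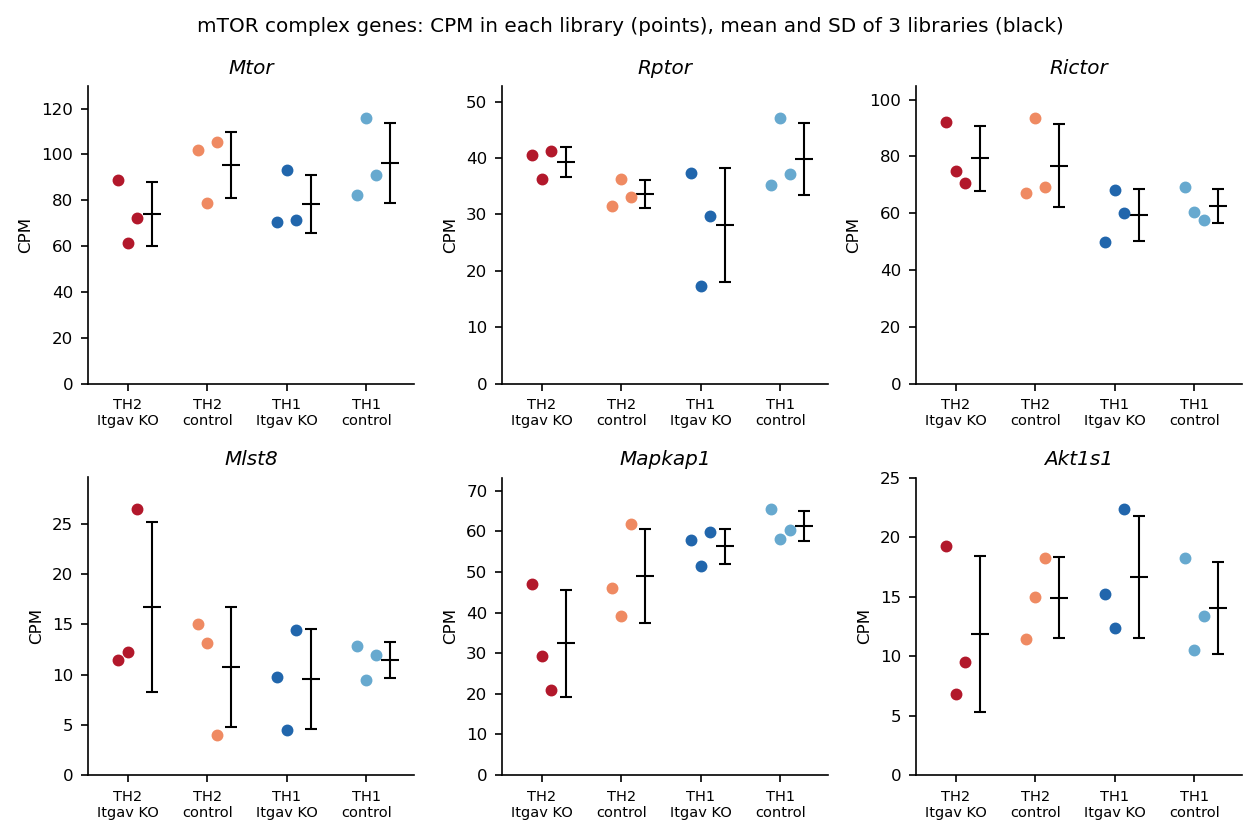
The panels show CPM in each library (points) with the mean and SD of 3 libraries (black) for Mtor, Rptor, Rictor, Mlst8, Mapkap1 and Akt1s1, with the groups TH2 Itgav KO, TH2 control, TH1 Itgav KO and TH1 control along the horizontal axis. Itgav KO and control libraries overlap in TH2 cells for all 6 genes.

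The lysosomal regulators were not called in the KO comparisons. Of the Ragulator subunits, which anchor the Rag GTPases, Lamtor1 to Lamtor5 had TH2 differences of 0.26, −0.25, −0.69, 0.10 and 0.00, with adjusted p of 0.478 or more. Lamtor3 was at 4.16, 2.36 and 9.37 CPM in TH2 Itgav KO against 7.96, 8.29 and 8.10 CPM in TH2 control libraries, and its interval ran from −1.72 to 0.33. Rraga had a difference of −0.14 ± 0.21. Rragc, the partner GTPase of Rraga, had 57.9, 79.9 and 75.9 CPM in TH2 Itgav KO against 46.8, 56.0 and 48.1 CPM in TH2 control libraries, without overlap, but with an adjusted p of 0.258 (0.49 ± 0.23). The GATOR1 subunits Nprl2, Nprl3 and Depdc5 had differences of 0.20, −0.03 and 0.36. Flcn, which encodes folliculin, an activator of RagC, had a change of 0.89 ± 0.43 (adjusted p = 0.261). Its libraries held 44.6, 26.8 and 24.0 CPM in TH2 Itgav KO against 6.05, 28.3 and 23.0 CPM in TH2 control cells. The groups thus overlapped, and TH2 control 1 lay far below the rest. Its partner Fnip1 had a difference of 0.32 ± 0.36, with 39.4, 36.3 and 125 CPM in TH2 Itgav KO against 55.5, 36.1 and 46.0 CPM in TH2 control libraries. Again a single library, here of the KO group, stood apart.

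Groups did not overlap for 7 of 38 components in TH2 cells (6 higher and 1 lower in Itgav KO), a share close to the 18.7% of all genes tested. The 6 were Pik3cd, Pik3r1, Pdpk1, Tsc2, Tbc1d7 and Rragc, and the 1 was Rheb. In TH1 cells, 0 of 38 components were called where 0.844% of all genes were. The lowest adjusted p was 0.539, 0 of 38 had an unadjusted p below 0.05 in limma, where 10.1% of all genes did, and limma with voom weights called 0 as well. Groups did not overlap for 5 components (Pik3cd, Pik3ap1 and Inpp5d higher, Pik3cb and Pdpk1 lower in Itgav KO), where 20.8% of all genes did not. The median change was −0.09, against 0.00 over all genes. In the test of the difference between the KO effects, 0 of 38 were called where 0.406% of all genes were, with voom weights also 0, and 5 had an unadjusted p below 0.05 (Pik3cd, Pik3r1, Inpp5d, Pdpk1 and Tsc2), where 11.0% of all genes did. The standard error of a KO change had a median of 0.28 over the 38 and ran from 0.16 for Pik3cd to 0.60 for Pik3cb.

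**Figure D4:**
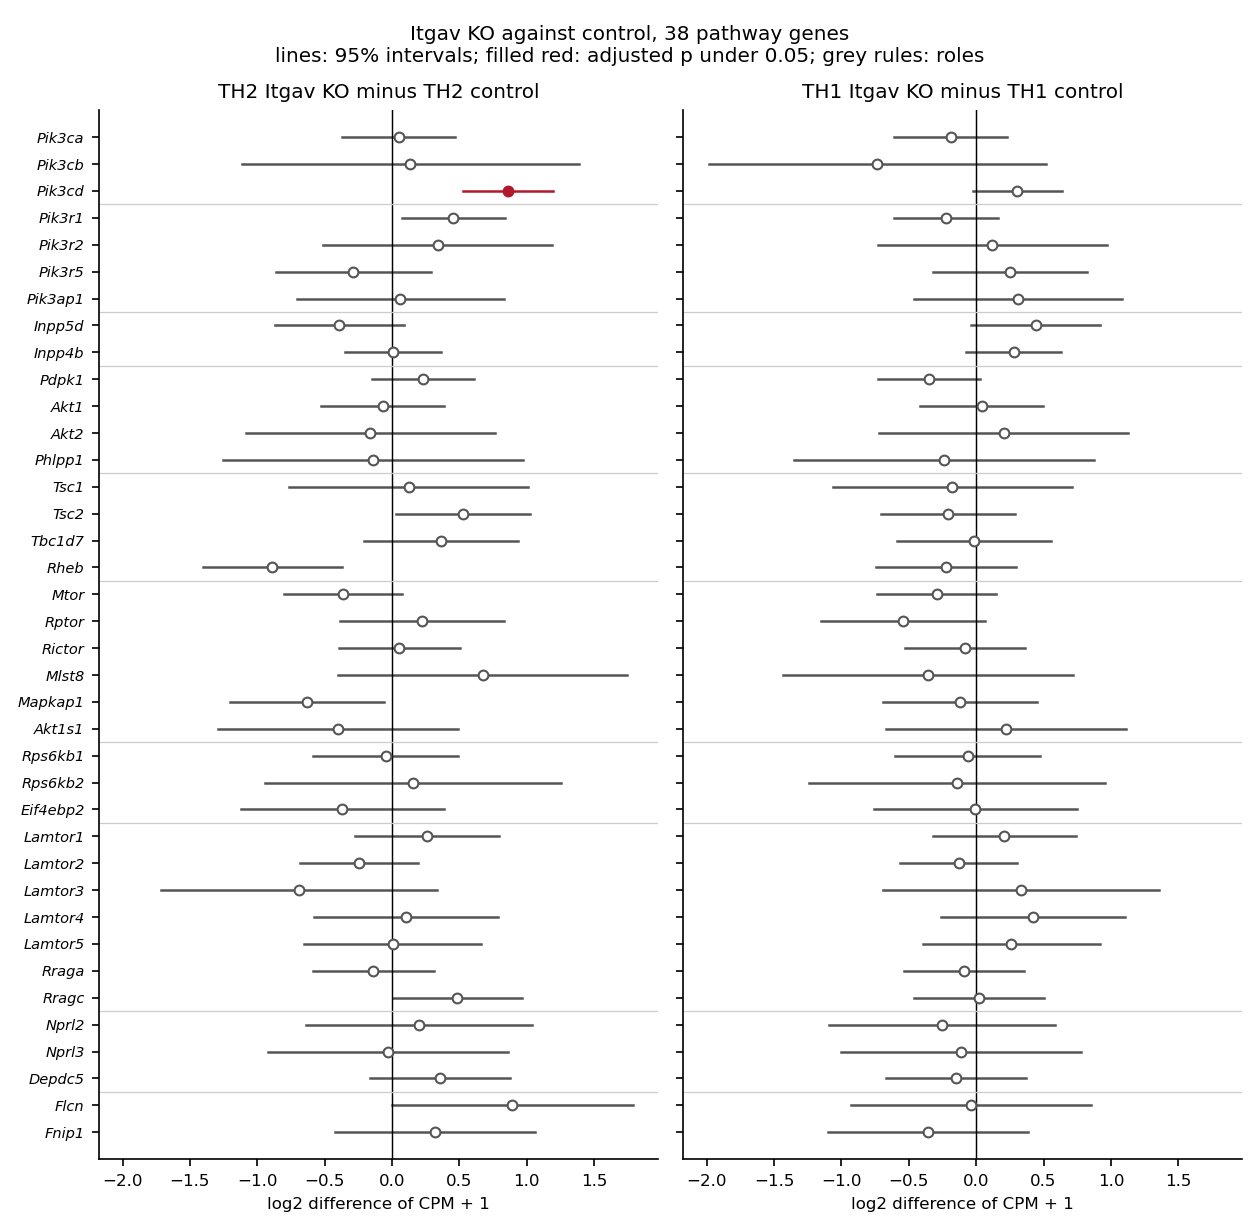
Each point is the change of 1 of the 38 components in Itgav KO against control cells, as a difference of log2(CPM + 1) with its 95% interval, in TH2 cells on the left and TH1 cells on the right, with grey rules between the roles. Pik3cd in TH2 cells, at 0.86, is the filled red point, and most other intervals include 0.

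The next question was which components differ between TH2 and TH1 cells. It was asked separately in the Itgav KO libraries and in the control libraries, which share no library with each other, though each shares libraries with the KO comparisons above. In KO libraries 10 of 38 components were called (4 higher and 6 lower in TH2), where 23.7% of all genes were (12.2% higher and 11.6% lower). In control libraries 6 of 38 were called (2 higher and 4 lower in TH2), where 18.3% of all genes were (8.58% higher and 9.75% lower). Groups did not overlap for 13 components in KO and 11 in control libraries, against 38.7% and 33.7% of all genes. These shares were near those of all genes. The median difference was −0.06 in KO and −0.21 in control libraries, against 0.01 and −0.01 over all genes.

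Inpp4b was higher in TH2 cells of both genotypes. It had 299, 281 and 345 CPM in TH2 Itgav KO against 138, 159 and 120.1 CPM in TH1 Itgav KO libraries (log2 1.15 ± 0.17, adjusted p = 3.29e-05). It had 316, 303 and 298 CPM in TH2 control against 146, 91.6 and 110.4 CPM in TH1 control libraries (1.42 ± 0.17, adjusted p = 2.35e-06). All TH2 libraries lay above all TH1 libraries, and both calls held under all 21 alternatives. Inpp4b is on the plus strand of chromosome 8, at 81342266 to 82134312 of GRCm38. The RefSeq start used here lies inside these coordinates, and so does its window. The 250 bases before that start are shown as those of a component called between the subsets in both genotypes under all alternatives. They held none of the 4 motifs.
Inpp4b chr8:81342312-81342561: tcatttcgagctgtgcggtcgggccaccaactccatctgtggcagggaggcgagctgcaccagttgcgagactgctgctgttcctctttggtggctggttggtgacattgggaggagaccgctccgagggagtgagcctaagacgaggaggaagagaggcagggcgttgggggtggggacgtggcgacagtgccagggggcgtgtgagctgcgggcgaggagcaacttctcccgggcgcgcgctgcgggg

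Pik3cd went the other way, at 371, 370.4 and 401 CPM in TH2 Itgav KO against 662, 640.2 and 587 CPM in TH1 Itgav KO libraries (−0.72 ± 0.16, adjusted p = 0.00206). In control cells it had 220.1, 159 and 263 CPM in TH2 against 559.6, 554 and 423 CPM in TH1 libraries (−1.27 ± 0.16, adjusted p = 4.18e-06). In each genotype all TH2 libraries lay below all TH1 libraries. TH2 control cells held 41.8% of the TH1 control mean, and TH2 Itgav KO cells 60.5% of the TH1 Itgav KO mean. The call in control cells held under all 21 alternatives, and that in KO cells was lost with no filter (adjusted p = 0.0534).

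Phlpp1 was lower in TH2 cells of both genotypes, at low levels. It had 4.34, 2.52 and 3.58 CPM in TH2 Itgav KO against 23.4, 11.6 and 7.87 CPM in TH1 Itgav KO libraries (−1.66 ± 0.53, adjusted p = 0.0284). In control cells it had 7.64, 2.50 and 2.85 CPM in TH2 against 10.1, 13.8 and 26.3 CPM in TH1 libraries (−1.76 ± 0.53, adjusted p = 0.0247). The groups did not overlap, but the libraries held as few as 16 reads of the gene. Since it passed the filter through TH1 libraries alone, the filter itself favoured a difference between the subsets, and its 2 calls are given as a description. The control call was lost without TH1 control 2 (adjusted p = 0.0574), TH1 control 3 (0.154), TH2 control 2 (0.0743) or TH2 control 3 (0.0703). The KO call was lost without TH1 Itgav KO 1 (0.157), TH1 Itgav KO 2 (0.0588) or TH2 Itgav KO 2 (0.0883), and voom weights lost both (0.0547 in control and 0.106 in KO cells).

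Differences in KO cells that also held whichever library was left out were those of Pdpk1 and Pik3r5. Pdpk1 had 123, 120.4 and 128 CPM in TH2 Itgav KO against 64.6, 56.8 and 59.0 CPM in TH1 Itgav KO libraries (1.03 ± 0.18, adjusted p = 2.33e-04), and this call held under all 21 alternatives. In control cells the difference was 0.45 ± 0.18 (adjusted p = 0.0896). That gap between the genotypes is the difference of the KO effects, 0.58 ± 0.26, which was not called (adjusted p = 0.406). Pik3r5 had 85.6, 57.2 and 41.9 CPM in TH2 Itgav KO against 144, 179 and 84.1 CPM in TH1 Itgav KO libraries (−1.12 ± 0.28, adjusted p = 0.00482). These groups overlapped, since 1 TH2 library lay above the lowest TH1 library, and the call was lost with no filter (0.113). In control cells its difference was −0.59 ± 0.28 (adjusted p = 0.157).

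The remaining calls each depended on single libraries. In control cells Inpp5d was higher in TH2 (96.7 ± 36.8 CPM) than in TH1 libraries (53.1 ± 4.13 CPM; SD, n = 3; 0.79 ± 0.23, adjusted p = 0.0189), and the call was lost without TH2 control 1 (adjusted p = 0.126), TH1 control 1 (0.0705) or TH1 control 3 (0.0609). Tsc2 was lower in TH2 control (38.8 ± 8.88 CPM) than in TH1 control libraries (64.5 ± 8.12 CPM; SD, n = 3; −0.74 ± 0.24, adjusted p = 0.0340), and was lost without TH2 control 1 (0.143), TH1 control 1 (0.107) or TH1 control 3 (0.136). Tbc1d7 was lower in TH2 control (22.3 ± 3.31 CPM) than in TH1 control libraries (41.6 ± 6.61 CPM; SD, n = 3; −0.87 ± 0.28, adjusted p = 0.0306), and was lost without any TH1 control library or without TH2 control 1 or 2 (0.0508 to 0.139). None of these 3 was called between the KO groups, where the differences were −0.04, 0.00 and −0.49 and the adjusted p values 0.921, 0.999 and 0.216.

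In KO cells the other called components were Depdc5 (0.72 ± 0.25, adjusted p = 0.0394) and Pik3r1 (0.52 ± 0.18, 0.0461), higher in TH2, and Lamtor5 (−0.99 ± 0.31, 0.0267), Mapkap1 (−0.85 ± 0.27, 0.0290) and Rheb (−0.74 ± 0.25, 0.0351), lower in TH2. Lamtor5 had 21.5, 15.4 and 32.5 CPM in TH2 Itgav KO against 45.1, 40.1 and 50.3 CPM in TH1 Itgav KO libraries. Its call was lost without TH2 Itgav KO 2 (0.130) or 1 (0.0629) and without TH1 Itgav KO 3 (0.0967) or 1 (0.0675). Rheb was lost without TH2 Itgav KO 1 (0.129) or 2 (0.0671) and without TH1 Itgav KO 1 (0.128) or 2 (0.104). Mapkap1 was lost without any TH1 Itgav KO library (0.0515 to 0.0896) and without TH2 Itgav KO 2 (0.0737) or 3 (0.139). The calls of Depdc5 and Pik3r1 each held in 4 of the 12 fits with a library left out, with highest adjusted p of 0.137 (without TH2 Itgav KO 3) and 0.257 (without TH1 Itgav KO 3). In control cells these 5 had adjusted p of 0.118 or more, and Mtor, Rptor and Rictor were called between the subsets in neither genotype (differences of −0.09, 0.53 and 0.41 in KO and of −0.01, −0.23 and 0.28 in control cells).

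**Figure D5:**
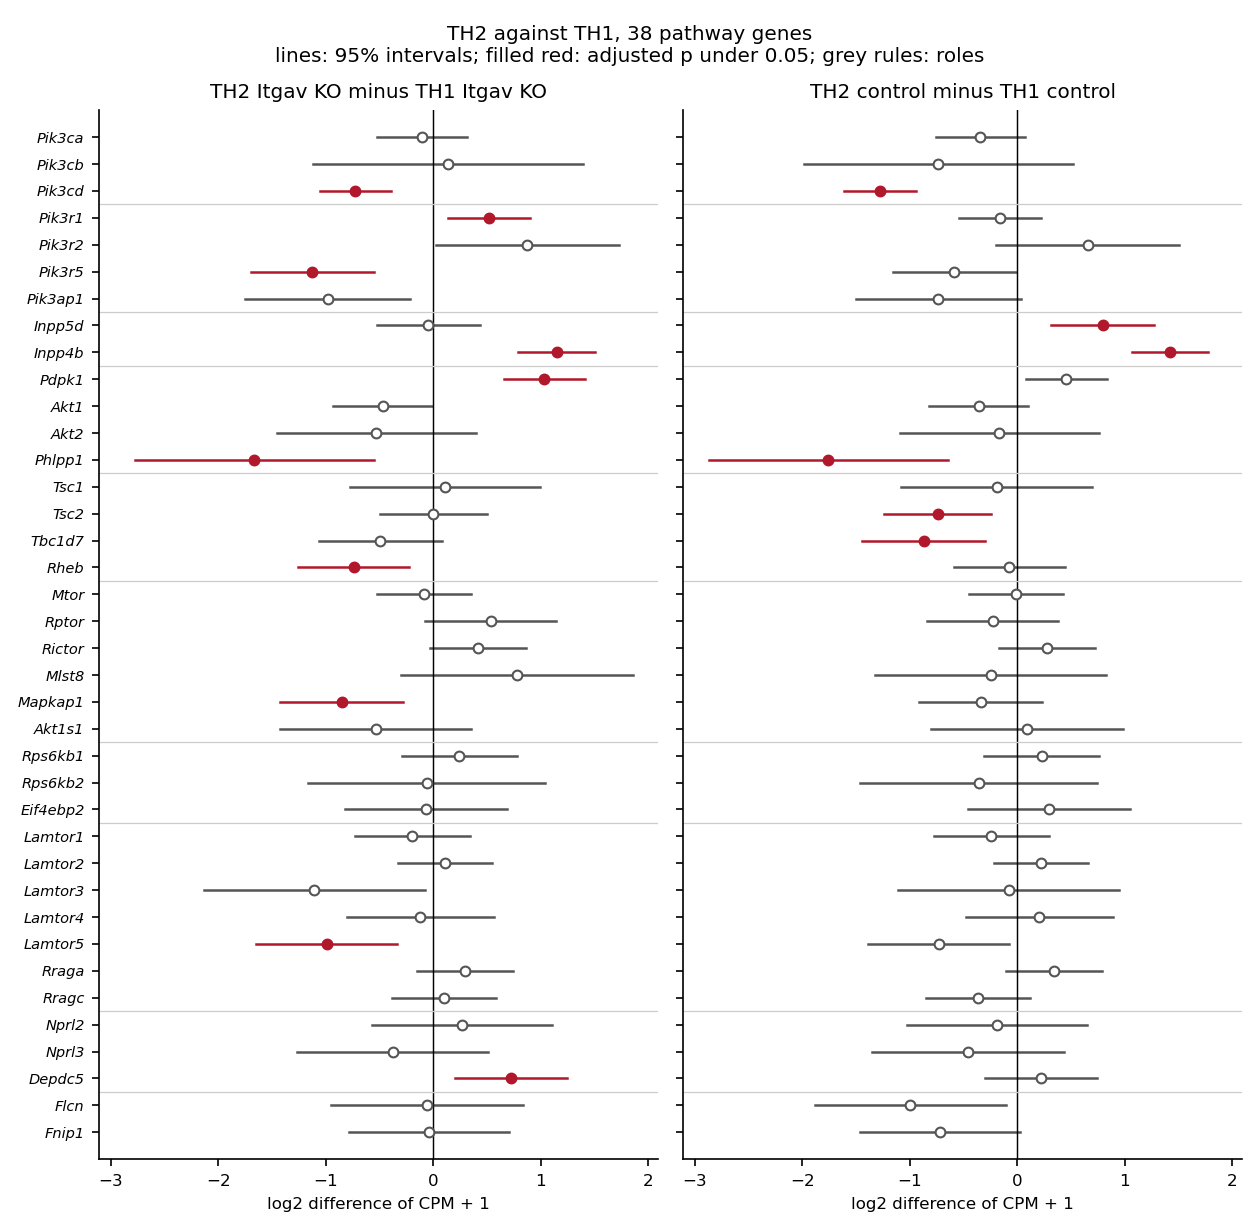
Each point is the difference of 1 of the 38 components between TH2 and TH1 cells, as log2(CPM + 1) with its 95% interval, in Itgav KO libraries on the left and control libraries on the right. Filled red points are the 10 called in KO and the 6 called in control libraries, and Inpp4b, Pik3cd and Phlpp1 are red in both panels.

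The spread between replicates differed widely among the components. The SD of log2(CPM + 1) within groups was 0.13 for Pdpk1, 0.21 for Inpp4b, Rictor and Tbc1d7 and 0.22 for Pik3cd, and it reached 0.65 for Flcn, 0.69 for Mlst8, 0.74 for Rps6kb2 and 0.97 for Pik3cb. The least depth behind a value was 15 reads of Lamtor3 and 16 of Phlpp1 in a library, while Pik3cd had 1398 to 7373 reads.

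Of 71 other genes of the pathway, 69 were listed and 58 tested. In TH2 cells 3 of 58 were called in Itgav KO, against 3.59% of all genes. Sesn3, which encodes a sestrin, an inhibitor of mTORC1, was higher at 68.6 CPM in TH2 Itgav KO and 34.6 CPM in TH2 control cells (1.01 ± 0.25, adjusted p = 0.0283). Wdr59, a subunit of GATOR2, which opposes GATOR1, was higher at 95.3 and 50.2 CPM in the same groups (0.95 ± 0.26, adjusted p = 0.0496). Eif4g1, a scaffold of translation initiation, was lower at 188 and 280 CPM (−0.57 ± 0.15, adjusted p = 0.0414). In TH1 cells 0 of 58 were called where 0.844% of all genes were, with 5 at an unadjusted p below 0.05 in limma (10.1% of all genes). In the difference of the KO effects 0 of 58 were called where 0.406% of all genes were, with 7 at an unadjusted p below 0.05 (11.0% of all genes). Between the subsets 13 were called in KO cells (10 higher and 3 lower in TH2), or 22.4% against 23.7% of all genes, and 14 in control cells (9 higher and 5 lower), or 24.1% against 18.3%. The 4 with the largest difference in KO cells were Prr5l (−2.61), an mTORC2 partner, Inpp4a (2.54), the paralog of Inpp4b, Pik3c2b (2.48), a class II PI3K, and Sgk1 (1.79), a kinase activated by mTORC2. In control cells they were Prr5l (−2.63), Pik3c2b (2.49), Prkag2 (1.79), a subunit of AMPK, and Lpin1 (1.24), a regulator of lipid synthesis that mTORC1 phosphorylates. Of these, Prr5l reached 10 CPM in TH1 libraries alone and Pik3c2b and Sgk1 in TH2 libraries alone. For these genes the filter itself favoured a difference between the subsets, and their differences are a description.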

How the data were processed

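Total RNA was amplified to cDNA before sequencing. Per the submitters' processing notes, the authors used Trim Galore 0.50, STAR 2.6.0a on GRCm38 and DESeq2 1.18.1, while the counter and the annotation behind the gene counts are not stated. The values deposited by the authors are CPM for 26202 genes. An offset of 0.0001 on each value was taken off. CPM has a fixed total, so a gene that gains lowers the rest, and reads shared between similar genes may be miscounted. Low values were whole multiples of 1 step (100% up to 1000 reads, within 0.1 reads), which gave the depth. The chi-square per degree of freedom between replicates was 18.5 to 76.3, so no library counted as deposited again. The highest values, 53.3 and 76.3, were both of pairs with TH2 control 1.

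limma 3.58.1 (R 4.3.3) with a variance trend was fitted on log2(CPM + 1) with 1 mean per group over all 12 libraries, for the 9121 genes that reached 10 CPM in 3 libraries (8 residual and 12.5 prior degrees of freedom). The two-sided p-values were Benjamini-Hochberg adjusted over these genes (threshold 0.05), and the steps were tested on simulated data. Every component is named. Values by library are given for those called in a KO comparison, for those called between subsets in both genotypes with a difference of 1 or more, and for Mtor, Rptor and Rictor; others were chosen after their values were seen. Up to 4 called genes per comparison are named from the other pathway genes. The components and lists were chosen with earlier results of these data known.

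Levels per length used the union of the exons of a gene's protein-coding transcripts in GENCODE M21, which can be longer than any single transcript. Promoter windows were taken from RefSeq on GRCm38.p6 (36 of 38 components, 45 starts). The alternatives were another pseudocount (0.5 CPM), a filter at 1 CPM or none, TMM scaling, no variance trend, voom weights on the reads, the replicate number as a block, only the groups compared, each library left out, and TH2 control 2 left out with TH2 Itgav KO 3.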

Additional observations from a re-analysis of the deposited data

How the results depend on the processing

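The number of the 38 components called in TH2 Itgav KO against TH2 control cells, 1 as reported, was 0 with no filter and with no variance trend, 2 with TMM scaling and 1 to 2 with a library left out. For all genes the count of 327 became 61 with no filter, 76 with no trend, 125 with only the TH2 libraries, 153 without TH2 control 2 and TH2 Itgav KO 3 together, and 158 to 383 with a library left out. In TH1 cells the components called stayed at 0 under every alternative, while the 77 genes became 24, 29, 157 with voom weights, 367 with only the TH1 libraries, 198 without that pair of libraries, and 26 to 124 with a library left out. For the difference of the KO effects the 37 genes became 7 with no filter, 1 with no trend, 17 with the replicate block, and 2 to 50 with a library left out, and the components called stayed at 0. Between the subsets, in control cells, 2 to 6 components were called with a library left out, and 1067 genes with no filter (1144 to 1797 with a library left out). In KO cells 2 components were called with no filter and 4 to 11 with a library left out, and 1396 genes with no filter (1592 to 2435 with a library left out). Dropping the filter tested more genes and also fitted the variance trend over them. The cause of this shift and of the others was not tested. No called component changed sign under any alternative. With TMM scaling, 2 components with changes near 0 turned sign in TH2 cells, the larger having a change of 0.01. Leaving libraries out turned more. Without TH2 control 1, 9 components turned sign in TH2 cells, with changes of up to 0.37 in size. With TH2 control 2 and TH2 Itgav KO 3 both left out, 10 did (up to 0.32). In the difference of the KO effects, leaving out that pair turned 8, with differences of up to 0.68 in size. The sign of a component that was not called can thus rest on single libraries. Same-numbered libraries of different groups did not deviate together (correlations of −0.07 to 0.03). No pairing by number was seen, but this check cannot exclude a pairing whose shared effect is small against the spread. With the replicate block the components called were 1 in TH2 cells, 0 in TH1 cells, 6 between the control groups and 8 between the KO groups. Depth was least for Lamtor3 and Phlpp1, with as few as 15 and 16 reads in a library.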
